A study of Homo sapiens with 56 samples.

Results

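SKOV3 is an established human ovarian carcinoma line, known for amplification of the receptor gene ERBB2. It was compared with the other 9 lines of the series grown in the base medium DMEM, which were CAOV3, CH1, DOV13, OAW28, OAW42, OVCA420, OVCA432, OVCA433 and TYKNU. The 2 arrays labelled SKOV3 are 2 of 56 arrays, which cover 28 untreated ovarian cancer lines with 2 arrays each. All 10 lines had DMEM with 10% FBS, and the medium of OAW28 and OAW42 also held insulin at 0.7 µg/ml. Gene expression was read on Affymetrix Human Gene ST arrays, and values are deposited log2 intensities after robust multi-array averaging (RMA), so that a difference of 1 is a factor of 2. OVCA420 replicate 1 correlated with its partner at only 0.615 over all genes and was left out, which left 17 arrays of the 9 other lines. Unless said otherwise, other arrays and other lines are these. The 2 arrays of each remaining line correlated at 0.994 to 0.996, and those of SKOV3 at 0.995, while SKOV3 correlated with the other lines' arrays at 0.897 to 0.943. Nothing states that the 2 arrays of a line come from separate cultures, so p-values between arrays measure only the spread between arrays of a line, which may be technical. SKOV3 stands for 1 line, and each array reads RNA of a whole culture, in which fewer expressing cells and less RNA per cell cannot be told apart.

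Carcinoma cells range from an epithelial state, with E-cadherin, tight junctions and desmosomes, to a mesenchymal state, with vimentin, N-cadherin and a fibronectin-rich matrix. The transition between them is held by opposing regulators. The repressors ZEB1, ZEB2 and SNAI2 silence epithelial genes, while GRHL2, OVOL factors and microRNAs of the miR-200 family oppose the repressors. ERBB2 is a receptor tyrosine kinase that signals as a dimer with its relatives, ERBB3 above all.

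The mature microRNAs of the miR-200 family are shown because the probe set of MIR200C fell in SKOV3 and because members with like seeds share targets. The family has 5 members, which fall into 2 groups by seed (bases 2 to 8, in capitals). The mature sequences are from RefSeq, build GRCh38.p14, 5′ to 3′. MIR141 and MIR200C lie together at chr12:6963742-6964176, and MIR200B, MIR200A and MIR429 at chr1:1167160-1169076, all on the plus strand.
hsa-miR-141-3p: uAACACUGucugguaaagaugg
hsa-miR-200a-3p: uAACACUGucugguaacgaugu
hsa-miR-200b-3p: uAAUACUGccugguaaugauga
hsa-miR-200c-3p: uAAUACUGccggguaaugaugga
hsa-miR-429: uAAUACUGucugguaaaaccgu

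Across 18377 genes, SKOV3 was higher than the mean of the 9 other lines in 854 (4.65%) and lower in 651 (3.54%), at a limma adjusted p under 0.05 and a difference of at least 1 log2 unit. These calls rest on the spread between arrays of a line. With no minimum difference, 4519 (24.6%) and 4478 (24.4%) passed. When the line was the unit, with 1 SKOV3 mean against 9 line means, 35 genes were higher (0.19%) and 4 lower (0.0218%). An exact permutation test of the absolute difference of 1 line from 9 cannot go below p = 0.1. Both SKOV3 arrays lay above all 17 other arrays for 1037 genes (5.64%) and below all of them for 885 (4.82%), of which 462 (2.51% of all genes) were also called higher and 351 (1.91%) called lower. The median difference over all genes was -0.021. Counts given below for gene lists are to be set beside these shares of all genes, 4.65% higher and 3.54% lower. A count of 1 member in a list is not read as a result about the list. A gene is said to have risen or fallen where it was called between arrays, and a call between lines is named as such.

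Epithelial junction genes were more often lower than higher in SKOV3. Of 19 measured, 9 fell and 1 rose, with a median difference of -0.69, and 9 of the 19, not all of them called, lay below all 17 other arrays. CXADR, a tight junction receptor, read 3.91 and 4.29 in SKOV3, against a lowest, median and highest other array of 7.36, 9.02 and 11.12, a difference of -4.98 ± 0.13 (SE; adjusted p = 3.69e-14, limma). EPCAM, an epithelial adhesion molecule, read 4.81 and 4.66 against 6.63, 9.67 and 11.98, a difference of -4.74 ± 0.087 (adjusted p = 3.13e-20, limma). CDH1, which encodes E-cadherin, read 3.75 and 4.01 against 6.52, 8.93 and 10.03, a difference of -4.61 ± 0.078 (adjusted p = 6.9e-24, limma). In all 3 genes the SKOV3 arrays stood clear of every other array, which was a condition of their choice among the largest falls. CLDN7, a claudin of tight junctions, fell by 3.88 on the log2 scale, and CDH3, P-cadherin, fell by 3.41. The exception was CGNL1, a cingulin-like junction protein, which rose with 8.32 and 8.71 against a highest other array of 8.10, a difference of 2.39. None of these genes was called between lines.

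**Figure D1:**
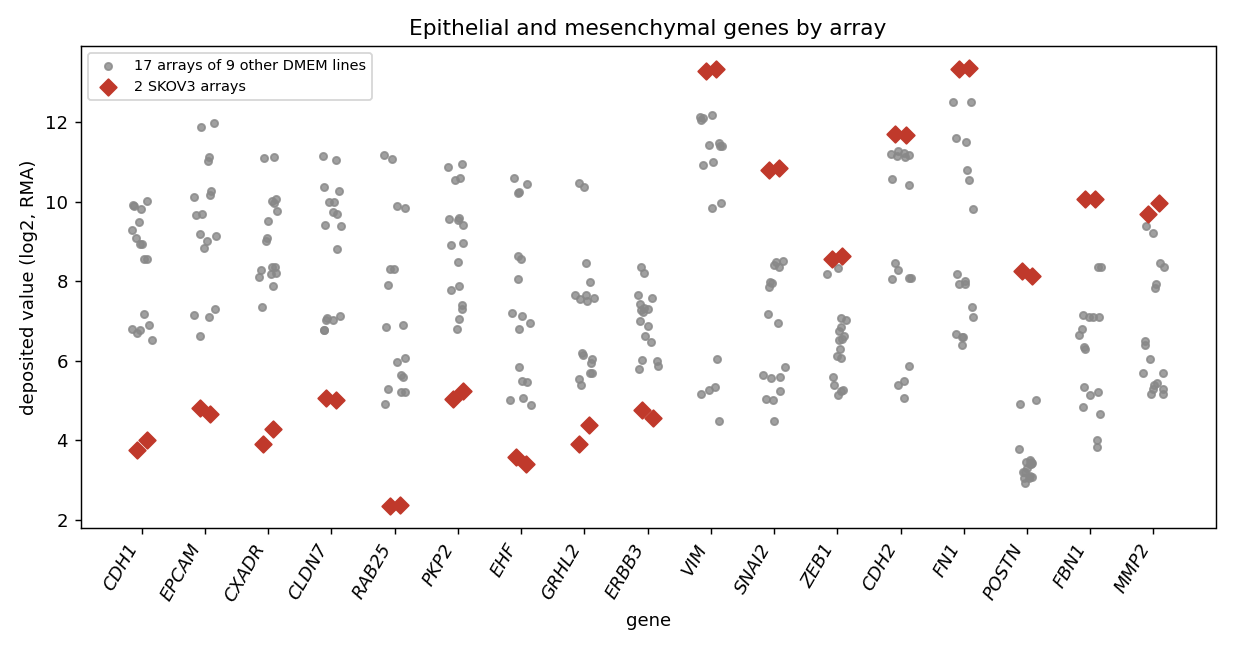
Deposited log2 values of 9 epithelial genes (left, CDH1 to ERBB3) and 8 mesenchymal genes (right, VIM to MMP2) by array. Red diamonds are the 2 SKOV3 arrays and grey points the 17 arrays of 9 other DMEM lines. For each of these genes the red points lie outside the grey range, which was a condition for those named as largest differences.

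Desmosome and hemidesmosome genes were mixed, with 4 of 15 lower, 2 higher and a median of -0.43. PKP2, a plakophilin of the desmosomal plaque, read 5.03 and 5.24 against 6.81, 8.95 and 10.96, a difference of -3.76 ± 0.067 (adjusted p = 1.74e-23, limma), and JUP, plakoglobin, fell by 2.90 on the log2 scale. ITGB4, a hemidesmosomal integrin (-1.89), and PPL, periplakin (-1.60), fell as well, while DSC3 (1.22) rose. Among keratins, 5 of 12 fell and 2 rose, with a median of -0.68. KRT18 fell by 2.42 on the log2 scale and its probe set, 1 of 2 for the gene, may share sequence with copies of the gene elsewhere, so its value is uncertain. KRT19 fell by 1.52 and KRT23 by 1.23, and KRT23 was not called when OVCA432 was left out (-0.83). KRT7 (-0.13) and KRT8 (-0.46), both keratins of simple epithelia, did not pass. KRT5, a keratin of basal cells, rose: it read 8.74 and 8.78 against 4.92, 6.01 and 7.57, a difference of 2.76 ± 0.11 (adjusted p = 8.49e-17, limma).

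Epithelial transcription and splicing factors were likewise lower or not called. Of 12 measured, 5 fell and none rose, the median was -0.68, and 5 of the 12, not all of them called, lay below all other arrays. EHF, an ETS factor, read 3.57 and 3.41 against 4.88, 7.13 and 10.61, a difference of -3.99 ± 0.11 (adjusted p = 3.58e-20, limma). GRHL2, a grainyhead factor that sustains junction genes, read 3.90 and 4.37 against 5.39, 7.49 and 10.47, a difference of -3.10 ± 0.10 (adjusted p = 2.81e-18, limma). GRHL1 fell by 1.67 on the log2 scale, ESRP2, a splicing regulator, by 1.32, and ELF3 by 1.27. RAB25, a GTPase of apical recycling, and MACC1, an inducer of the receptor gene MET, were among the genes with the largest falls. RAB25 read 2.34 and 2.37 against 4.90, 6.85 and 11.17, and MACC1 read 2.38 and 2.24 against 4.37, 6.91 and 9.81. The differences were -4.98 ± 0.11 for RAB25 and -4.75 ± 0.13 for MACC1. That SKOV3 overlapped no other line in either was a condition of their choice. The epithelial signature genes of the study, taken from a supplement that holds 197 of them and not the whole signature, gave 73 lower and 3 higher of 184 measured, with a median of -0.76. The signature was drawn up on ovarian cancer lines, SKOV3 possibly among them, and is not independent evidence of the direction.

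Of the 5 miR-200 precursors, 1 fell and none rose, and this group was chosen after the values had been seen. The probe set for MIR200C read 4.01 and 4.11 in SKOV3 against 4.61, 5.16 and 5.92, a difference of -1.22 ± 0.11 (adjusted p = 8.89e-10, limma), below all other arrays. MIR141, its neighbour on chromosome 12, read 4.22 and 3.92 against 3.76, 4.70 and 5.26, a difference of -0.60 ± 0.15 that did not pass. On chromosome 1, MIR200A (0.037), MIR200B (0.025) and MIR429 (0.013) did not pass, and MIR200A read only 3.73 to 4.12 over the 17 other arrays. These probe sets cannot separate a mature miRNA from its precursor, and the seeds are those of the mature forms.

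Most genes of the mesenchymal list were higher in SKOV3. Of 17 genes for cytoskeleton, cadherins and repressors, 12 rose, 1 fell and 4 did not pass, with a median of 1.74, and 7 lay above all other arrays. SNAI2, a repressor of CDH1, read 10.79 and 10.84 against 4.49, 6.94 and 8.51, a difference of 4.01 ± 0.13 (adjusted p = 1.05e-16, limma). VIM, vimentin, read 13.28 and 13.34 against 4.47, 10.99 and 12.18, a difference of 3.96 ± 0.11 (adjusted p = 1.89e-12, limma). CDH2, N-cadherin, read 11.70 and 11.68 against 5.06, 8.47 and 11.27, a difference of 2.85 ± 0.078 (adjusted p = 4.47e-18, limma). SKOV3 was the highest of the DMEM lines in each, but for CDH2 the nearest other array was within 0.41. For SNAI2 and VIM, lying above all other arrays was a condition of their choice. ZEB1 rose by 2.24 and ZEB2 by 2.28, TAGLN by 3.18, S100A4 by 2.79 and AXL, a receptor kinase, by 2.26, and the arrays of TAGLN and AXL overlapped those of other lines. SNAI1 (0.28) and TWIST1 (0.97) did not pass, TWIST1 passing without OVCA433 (1.05), OAW42 (1.02) or SKOV3 replicate 2 (1.05), and TCF4 fell by 1.23. The mesenchymal signature genes in the same supplement, 223 and again not the whole signature, gave 33 higher and 3 lower of 200 measured, with a median of 0.21, and are not independent evidence of the direction either.

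The extracellular matrix list had 15 of 26 genes higher, none lower, and a median of 1.43, and 7 members lay above all other arrays. POSTN, periostin, read 8.25 and 8.14 against 2.91, 3.39 and 5.00, a difference of 4.74 ± 0.12 (adjusted p = 7.69e-21, limma), and was also called between lines (SE 0.57, adjusted p = 0.0082, limma). Its call between lines was kept in 16 of 17 alternatives and lost without the lowest 20% of genes. That alternative counts a call as lost also where the gene itself was left out and not tested. FN1, fibronectin, read 13.34 and 13.37 against 6.39, 8.0 and 12.51, a difference of 4.36 ± 0.073 (adjusted p = 4.23e-22, limma). FBN1, fibrillin, read 10.08 and 10.07 against 3.82, 6.35 and 8.37, a difference of 4.0 ± 0.09 (adjusted p = 1.45e-21, limma). All 3 stood above every other array, a condition of their choice, and for FN1 DOV13 came within 0.82 of SKOV3. VCAN, versican, rose by 4.53 although OAW42 read higher, with a mean of 11.80 against 11.47 and 11.48 in SKOV3, and DOV13 (11.18) came close. COL12A1 (2.99), COL1A1 (2.45) and TGFBI (2.62) rose, and COL3A1 (0.14) and LUM (0.43) did not pass.

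Integrins, laminins, proteases and protease inhibitors went both ways. Of 19 integrins and laminins, 5 rose and 7 fell, with a median of 0.0058. ITGA4 (2.59), ITGB3 (2.50), ITGA3 (2.00) and ITGA5 (1.5) rose, subunits of receptors for matrix or cell surface ligands, and ITGA2 (-2.64), LAMA5 (-1.82) and ITGB8 (-1.50) fell. Other lines read higher for ITGA4 (DOV13 7.88, SKOV3 7.65), ITGB3 (OAW42 10.47, SKOV3 9.48) and ITGA3 (DOV13 11.59, SKOV3 11.32). ITGA2 in SKOV3 (5.34 and 5.44) was level with the lowest other array (5.33). Of 22 proteases and their inhibitors, 4 rose and 6 fell, with a median of -0.25. MMP2, gelatinase A, read 9.68 and 9.96 against 5.15, 6.03 and 9.38, a difference of 3.20 ± 0.10 (adjusted p = 1.55e-18, limma), and PLAU, urokinase, rose by 3.12 and SERPINE2 by 3.36. The epithelial membrane protease ST14, matriptase, read 4.54 and 4.54 against 6.02, 8.25 and 9.48, a difference of -3.36 ± 0.087 (adjusted p = 2.01e-20, limma). TMPRSS4 (-2.99), PRSS8, prostasin (-2.46), and the inhibitor SPINT1 (-2.18) fell with it, and so did MMP14 (-2.20).

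**Figure D2:**
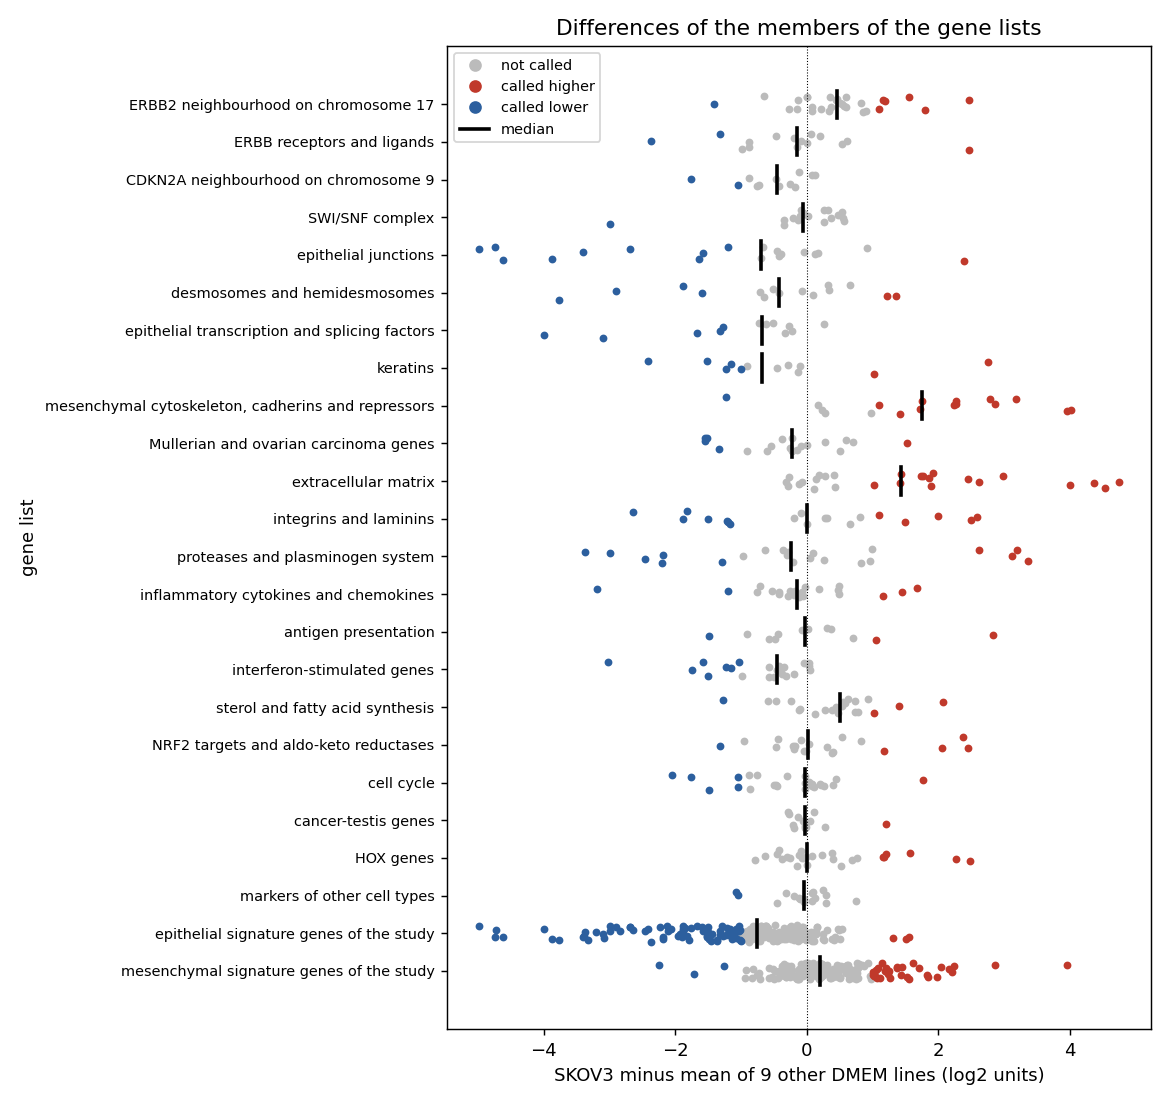
SKOV3 minus the mean of 9 other DMEM lines (log2 units) for each member of the gene lists, 1 point a gene. Red was called higher, blue called lower, grey not called, and black bars are list medians, with extracellular matrix at 1.43 and epithelial junctions at -0.69.

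ERBB2 was the highest of all 28 lines in SKOV3. It read 10.80 and 10.83 against 7.38, 8.42 and 9.02 in the other DMEM lines, a difference of 2.47 ± 0.059 (adjusted p = 4.56e-21, limma), which is a factor of 5.53. The nearest other array, of OAW28, was 1.78 lower. It was not called between lines (adjusted p = 0.173, limma). Of 29 measured genes in that stretch of chromosome 17, ERBB2 included, 6 rose and 1 fell, with a median of 0.46, and 9 lay above all other arrays. The rise was not even along the region. PGAP3 (1.80), MIEN1 (1.16), STARD3 (1.56), LASP1 (1.19) and THRA (1.10) rose, LASP1 not when the probe sets of a gene were averaged (0.72), and PGAP3, ERBB2 and MIEN1 are next to each other. GRB7, an adaptor that lies next in order and is often co-amplified with ERBB2, read 6.58 and 6.44 against 6.27, 7.33 and 7.90, a difference of -0.65 that did not pass the minimum. CDK12 (0.50) did not pass either, and IGFBP4, at the far end, fell by 1.40. Among receptors and ligands of the family, 1 of 15 rose, ERBB2 itself, and 2 fell, with a median of -0.15. ERBB3, the kinase-impaired partner of ERBB2, read 4.76 and 4.56 against 5.80, 7.22 and 8.35, a difference of -2.36 ± 0.087 (adjusted p = 2.11e-17, limma), below every other array. ERBB4 fell by 1.31, and was not called without OVCA432 (-0.94), while EGFR (0.20) did not pass.

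Feedback inhibitors and other output genes of the MAPK pathway, a set chosen after the values had been seen, were lower in 4 of 15 and higher in 1, with a median of -0.60. DUSP6, a phosphatase of ERK, read 5.44 and 5.72 against 8.24, 9.61 and 11.10, a difference of -4.05 ± 0.063 (adjusted p = 1.49e-24, limma), and the inhibitors SPRY1 (-2.38) and SPRY2 (-1.23) and the ETS factor ETV4 (-1.89) fell. PHLDA1 rose by 1.28, and was not called without OAW28 and OAW42 (0.84).

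The genes with the largest rises were led by KIT. This receptor tyrosine kinase of stem cell factor read 9.94 and 9.85 against 3.88, 4.43 and 6.55, a difference of 5.18 ± 0.14 (adjusted p = 2.51e-20, limma), a factor of 36.2, and was called between lines (SE 0.83, adjusted p = 0.0442, limma), a call that was kept in 6 of 17 alternatives and lost on leaving out CH1, DOV13, OAW28, OAW42, OVCA420, OVCA432, OVCA433 or TYKNU. Its relative PDGFRB (0.29) did not pass, nor did its ligand KITLG (0.038). SLCO1B3, an organic anion transporter, read 8.18 and 8.53 against 2.28, 2.94 and 6.05, a difference of 4.89 ± 0.15. CLMP, an adhesion molecule related to CXADR, read 10.92 and 10.87 against 5.30, 5.76 and 8.08, and DOCK10, an exchange factor for small GTPases, read 9.71 and 9.82 against 3.65, 4.36 and 7.73, each a difference of 4.73. PTGIS, prostacyclin synthase, rose by 4.31, CDA, cytidine deaminase, by 4.31, CRYAB, a small heat shock protein, by 4.19, and CALB1, calbindin, by 4.0. That no other DMEM array reached SKOV3 in these 8 genes was a condition of their choice. In all of them SKOV3 was among the 4 highest of 28 lines. Others called between lines were ADAM12, a metalloprotease (3.0), TENM2, a teneurin (3.0), AMTN (2.76), DOCK2 (2.59), GDF6, a BMP ligand (1.75) and GRIN2B (1.52). The calls of AMTN, DOCK2 and GRIN2B between lines were lost without the lowest 20% of genes, where a gene left out untested counts as lost. Those of ADAM12, TENM2 and GDF6 were kept in 17 of 17 alternatives.

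Only 4 genes were called lower between lines. UBE2G1, a ubiquitin conjugating enzyme, read 5.78 and 5.50 against 9.21, 9.76 and 10.62, a difference of -4.30 ± 0.46 (SE between lines, adjusted p = 0.00303, limma). ACAA2, a mitochondrial thiolase of fatty acid oxidation, read 4.62 and 3.52 against 6.78, 8.19 and 8.87, a difference of -4.12 ± 0.57 (SE between lines, adjusted p = 0.0185, limma). EBP, a sterol isomerase of cholesterol synthesis, read 5.91 and 5.58 against 8.97, 9.41 and 10.95, a difference of -3.71 ± 0.59 (SE between lines, adjusted p = 0.0426, limma). CHUK, the kinase IKK alpha, read 5.36 and 5.70 against 8.18, 8.90 and 9.71, a difference of -3.42 ± 0.48 (SE between lines, adjusted p = 0.019, limma). In all 4 both SKOV3 arrays lay below every other array, which for UBE2G1, ACAA2 and EBP was also a condition of their naming. Between lines the call of UBE2G1 was kept in 17 of 17 alternatives, while that of EBP was kept in 6 and was lost without SKOV3 replicate 2 or any 1 of CH1, DOV13, OAW28, OAW42, OVCA420, OVCA432, OVCA433 and TYKNU. ACAA2 and CHUK each kept it in 16. ACAA2 lost it without OAW28 and OAW42, and CHUK with OVCA420 replicate 1 put back in. SMARCC1, a core subunit of the SWI/SNF complex, read 6.41 and 6.75 against 8.72, 9.65 and 10.54, a difference of -3.0 ± 0.062 (adjusted p = 4.23e-22, limma), and was the 1 member of 19 that fell, with none higher and a median of -0.058. ARID1A (-0.21) and SMARCA4 (0.26) did not pass.

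**Figure D3:**
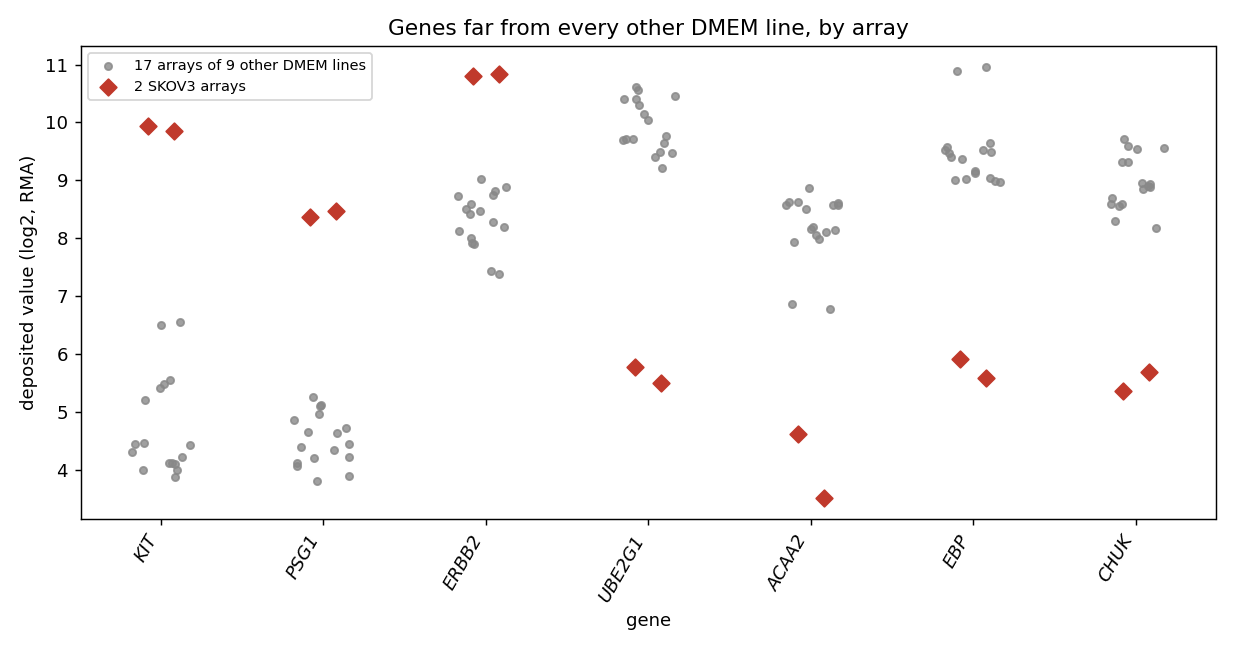
Deposited log2 values of KIT, PSG1 and ERBB2, which were higher in SKOV3, and UBE2G1, ACAA2, EBP and CHUK, which were lower, by array. Red diamonds are the 2 SKOV3 arrays and grey points the 17 arrays of 9 other DMEM lines. The genes were picked as far from every other DMEM line, and no grey point overlaps a red one.

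Some of these genes sat beside others that moved the same way. Consecutive called genes, at least 3 in a row in the RefSeq gene order, made 21 higher runs of 73 genes and 12 lower runs of 44 genes. UBE2G1 closed a lower run on chromosome 17 with ZZEF1 (-1.51), CYB5D2 (-1.17) and ANKFY1 (-2.70), all below every other array, and the next gene, SPNS3 (-0.37), did not pass. ACAA2 lay in a lower run on chromosome 18 with LIPG (-2.16), SCARNA17 (-1.86) and MYO5B (-1.87), all below every other array. KIT, EBP, CHUK, SMARCC1 and DUSP6 were in no run. Near CHUK, though, DNMBP (-1.12), COX15 (-0.92), BLOC1S2 (-0.83), NDUFB8 (-0.69), HIF1AN (-0.65) and SLC25A28 (-0.36) lay below every other array. The genes next to it, ERLIN1 (-0.43) and CWF19L1 (-0.71), did not, and PKD2L1 (0.15) and SEC31B (0.16) were not lower. Near SMARCC1, DHX30 (-0.58) and PLXNB1 (-1.08) lay below every other array. Among higher runs, 1 of 4 genes on chromosome 11 held DKK3 (2.86), MICAL2 (2.28) and PARVA (2.19), and 1 of 3 genes on chromosome 14 held HIF1A, the oxygen-regulated factor (1.65), and SYT16 (2.71). With OVCA420 replicate 1 put back in, HIF1A was not called (1.88). Copy number was not measured here.

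**Figure D4:**
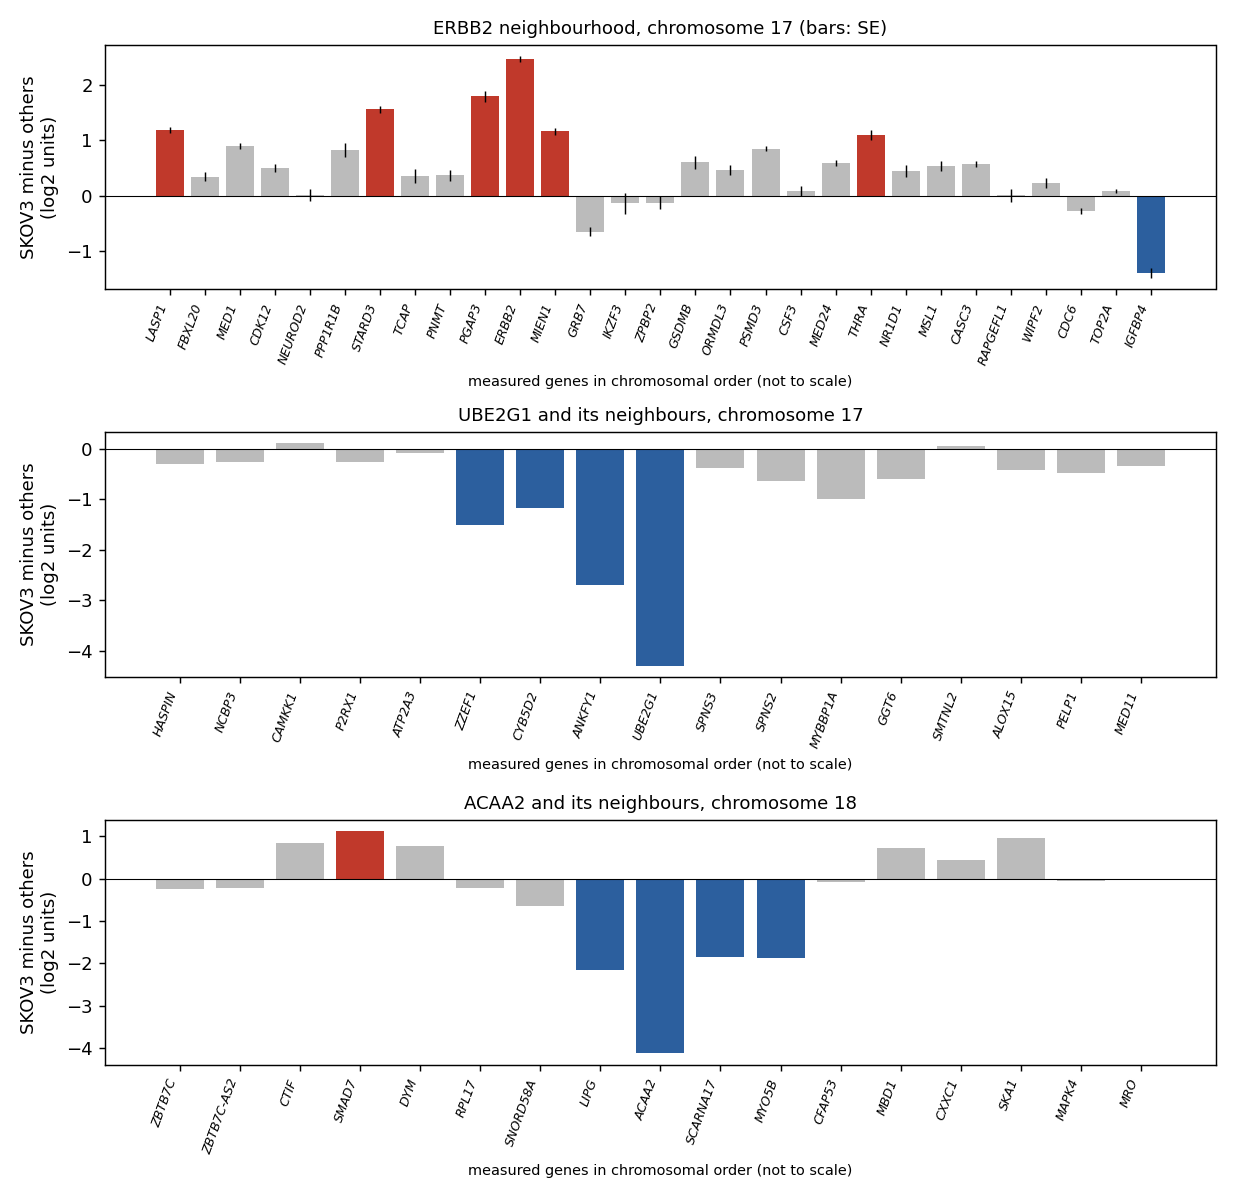
SKOV3 minus the mean of 9 other DMEM lines (log2 units) for measured genes in chromosomal order around ERBB2, UBE2G1 and ACAA2. Bars are red at 1 or more and blue at -1 or less, error bars in the top panel are SE, and the runs around UBE2G1 and ACAA2 end at neighbours that did not pass.

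Clustered gene families gave the longest runs. These families were also chosen after the values had been seen. Members of a family such as PCDHB or PSG can share much sequence, so values of single members are uncertain. Of 18 PCDHB genes, protocadherins encoded in a row on chromosome 5, 14 rose, none fell, and the median was 1.71. PCDHB15 read 6.63 and 6.99 against 3.44, 4.60 and 5.22, a difference of 2.25 ± 0.24. Of 7 PSG genes, pregnancy-specific glycoproteins of chromosome 19, 6 rose, all 7 lay above every other array, and the median was 2.74. PSG1 read 8.36 and 8.48 against 3.81, 4.45 and 5.26, a difference of 3.93 ± 0.39 (SE between lines, adjusted p = 0.0021, limma). Its call between lines was kept in 16 of 17 alternatives and lost without the lowest 20% of genes, where a gene left out untested counts as lost. Of 237 ZNF genes on chromosome 19, 52 rose and none fell, with a median of 0.40, whereas of 256 ZNF genes on other chromosomes 6 rose and 7 fell, with a median of 0.042. ZNF542P rose by 4.18, ZNF676 by 2.93 and ZNF578 by 2.68. HOX genes, 27 measured, had 6 higher, none lower and a median of 0.011, and all 6 were of the HOXB cluster, where 6 of 10 rose. HOXB2 read 9.70 and 9.89 against 5.31, 7.22 and 9.61, a difference of 2.48 ± 0.16, just above DOV13. Only 2 of the 10 HOXB genes lay above all other arrays. DOV13 read higher than SKOV3 for HOXB5 (7.44 against 6.97), HOXB8 (7.25 against 7.13) and HOXB9 (8.60 against 8.28). For HOXB7 the 2 lines were level (8.62 against 8.65), and for HOXB6 SKOV3 was just higher (8.86 against 8.63). None of 7 HOXC or 9 HOXD genes passed. Of 115 SNORD genes, small nucleolar RNAs, 25 fell and none rose (median -0.40). Of 61 SNORA genes 3 fell and none rose (median -0.36), a share near the 3.54% of all genes that fell. A run on chromosome 1 held 7 SNORD genes, among them SNORD78 (-1.94), SNORD74 (-1.59) and SNORD44 (-1.54).

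**Figure D5:**
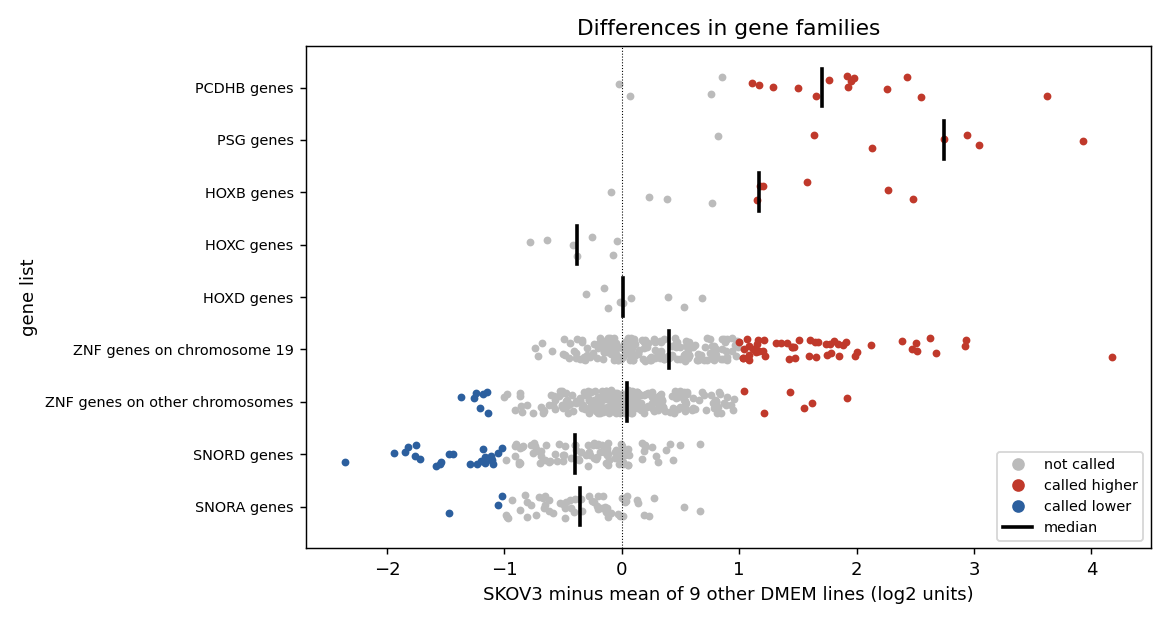
SKOV3 minus the mean of 9 other DMEM lines (log2 units) in gene families, 1 point a gene. Red was called higher, blue called lower, grey not called, and black bars are medians, which were 1.71 for PCDHB, 2.74 for PSG and 0.40 for ZNF genes on chromosome 19.

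Genes of cell cycle control were compared next. CDKN2A, which encodes p16, read 5.68 and 6.08 against 5.67, 7.71 and 9.46, a difference of -1.76 ± 0.089 (adjusted p = 1.15e-14, limma), level with the lowest other array. Its neighbour MTAP fell by 1.05, and was not called without TYKNU (-0.90), CH1 (-0.97) or SKOV3 replicate 1 (-0.97). These were 2 of 12 measured in that neighbourhood that fell, with none higher and a median of -0.45. In the cell cycle list, 5 of 26 fell and 1 rose, with a median of -0.022. CCND2 fell by 2.04, and the proliferation gene MKI67 (0.27) did not pass. RB1 rose by 1.77, with 9.69 and 9.70 against 4.29, 8.59 and 9.61, so the highest other array was within 0.077. CAOV3 (4.76) and OVCA432 (4.40) read far below the other lines for RB1 and lowered the mean it was compared with.

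Interferon-stimulated genes fell in 7 of 23 and rose in none, with a median of -0.46. IFITM1 read 5.17 and 4.69 against 5.28, 8.14 and 10.85, a difference of -3.03 ± 0.11 (adjusted p = 1.09e-15, limma), and IFIH1 (-1.74), a sensor of RNA, IFI44 (-1.57) and OAS1 (-1.50) fell, while MX1 (-0.58) and ISG15 (-0.35) did not pass. Of the 23, only 3 lay below all other arrays. For IFI44, OAW42 (3.61), CH1 (4.25) and OAW28 (5.05) read below SKOV3 (5.18), and for OAS1 OAW42 (5.70) was level with SKOV3 (5.69). In antigen presentation 2 of 12 rose and 1 fell, with a median of -0.025. ERAP2, an aminopeptidase that trims peptides, rose by 2.82 and its relative ERAP1 fell by 1.48. For ERAP2 the highest other array (9.74) was within 0.11 of SKOV3, and TYKNU was the nearest line. Cytokines and chemokines had 3 of 22 higher and 2 lower, with a median of -0.14. CXCL16 fell by 3.18, and CSF1 (1.68) and CXCL1 (1.45) rose. CXCL8 (0.48) did not pass.

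In sterol and fatty acid synthesis 3 of 22 rose and 1 fell, with a median of 0.51. SC5D rose by 2.07 and LSS, lanosterol synthase, by 1.39, both above all other arrays, and ELOVL6 fell by 1.28, but not with OVCA420 replicate 1 put back in (-1.12). EBP, which acts between these enzymes, was not in that list. NRF2 targets had 4 of 20 higher and 1 lower, with a median of 0.014. AKR1C2 (2.45), HMOX1, heme oxygenase (2.37), and AKR1C3 (2.06) rose, and AKR1B10 fell by 1.33 but was not called without OVCA420 (-0.61). AKR1C genes share sequence, so their values are uncertain. Of 13 cancer-testis genes 1 rose, PRAME (1.20), with a median of -0.031, and it was not called without CH1 (0.93), DOV13 (0.94), TYKNU (0.94) or OVCA420 (0.99).

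Lineage markers of ovarian carcinoma were mixed. Of 19 Müllerian and ovarian carcinoma genes, 1 rose and 4 fell, with a median of -0.23, where 4.65% of all genes rose and 3.54% fell. PAX8, the Müllerian lineage factor, read 10.02 and 10.19 against 6.15, 9.06 and 10.97, a difference of 1.52 ± 0.069 (adjusted p = 1.34e-15, limma), within the range of the other lines. WT1 read 6.50 and 6.34 against 5.62, 6.27 and 9.62, a difference of -0.37 that did not pass. MUC1 (-1.55), CRABP2 (-1.54) and WFDC2, which encodes HE4 (-1.51), fell, each within the range of the other lines. MUC16 (-0.91) and MSLN (-0.54) did not pass. Of 17 markers of leucocytes, endothelium, liver, muscle and neural cells, none rose and 2 fell, PECAM1 (-1.07) and CDH5 (-1.04), with a median of -0.045. Neither was called without TYKNU, when they were -0.53 and -0.69, PECAM1 also not without CH1 (-0.93) or SKOV3 replicate 2 (-0.83), and CDH5 not without DOV13 (-0.80).

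The 18 lines of other media grew in RPMI 1640, DMEM/F12 or mixed media with FBS at 3, 5, 10 or 20%, and 6 of them also had insulin at 10 µg/ml, some with hydrocortisone, while others had non-essential amino acids. HEYC2 replicate 1 and OV56 replicate 2 correlated with their partners at 0.748 and 0.806, against 0.98 to 0.997 in the other 16 lines, and were left out as well. The comparison with these lines uses the same SKOV3 arrays. In it, 838 genes were higher (4.56%) and 604 lower (3.29%), and with all 56 arrays 527 were lower. KIT differed by 5.18, ERBB2 by 2.92, VIM by 3.23, POSTN by 3.98, CDH1 by -3.47, EPCAM by -4.21, UBE2G1 by -4.40, ACAA2 by -3.42, CHUK by -3.30 and SMARCC1 by -3.0. Of the lists, 12 of 26 matrix genes rose and 1 fell, and 8 of 19 junction genes fell and 1 rose. POSTN was second among 28 lines, EPCAM second lowest, and KIT the highest.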

How the data were processed

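The deposited values are log2 intensities, which the authors obtained by RMA with affy 1.42.3, as the submitters' processing notes give it. Which arrays were normalized together, background filters and scan batches are not given in the sources used here. Precision is limited by 2 arrays a line. Of 28869 probe sets, 19310 carried 1 gene in the platform annotation and gave 18377 genes. The probe set with the highest mean over 56 arrays was used for 685 genes with several. Gene order, chromosomes and microRNA sequences are from RefSeq (GRCh38.p14), and apart from the places of the microRNAs no coordinates from it are given, because the arrays' build is not stated.

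SKOV3 was compared with the mean of 9 line means over 19 arrays in limma 3.58.1 (statmod 1.5.0, R 4.3.3; group means, trend and robust settings, Benjamini-Hochberg over 18377 genes), over 10 line means in the same tool, and with 18 lines of other media over 53 arrays, leaving out OVCA420 replicate 1, HEYC2 replicate 1 and OV56 replicate 2. In the fit over lines the lone SKOV3 value is assumed to vary like the other lines. Fits were tested on simulated data. Alternatives covered arrays and lines left out, normalization, probe sets, low genes and the minimum difference.

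The comparison and the gene lists were chosen with earlier results of these data known. Genes named are the 15 largest differences each way outside the other arrays' range, up to 4 called members of each list and 17 set genes, and other members of lists, families and runs were picked for naming once values were known. Results of 1 list are not reported here. A motif search in promoters was void and its shares are not given, because only 48 of the 73 epithelial signature genes that fell (65.8%) had a promoter entry. Python 3.11.15, pandas 2.3.3 and matplotlib 3.10.9 made lists and plots.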

Additional observations from a re-analysis of the deposited data

Results flagged for a closer look

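Probe sets outside the named genes also differed. Of 1752 probe sets that carry several genes, 50 were called higher (2.85%) and 60 lower (3.42%), and 28 of the higher ones lay above all 17 other arrays. Of 7807 probe sets with no gene listed, 66 were called higher (0.845%) and 55 lower (0.704%), and 38 of the higher ones lay above all 17 other arrays. They were set apart because no comparison of named genes uses them, and which transcripts they read was not tested. Groups of 2 arrays are too small to test for outlying arrays.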

How the results depend on the processing

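Between-array counts of 854 higher and 651 lower became 4519 and 4478 with no minimum difference, and 182 and 100 at a difference of at least 2 log2 units. Against the lines of other media they became 4149 and 4292 with no minimum. Genes below all other arrays numbered 503 with OVCA420 replicate 1 put back in, and from 958 to 1560 with 1 line or 1 SKOV3 array left out, the highest counts being 1484 and 1560 without SKOV3 replicate 1 or 2, where 1 array has to clear the range in place of 2. Between lines, 14 genes were higher without the lowest 20% of genes, where fewer genes were tested and 17 of the 39 calls remained, against 26 without OAW28 and OAW42 and 31 to 39 with 1 line or 1 SKOV3 array left out. Calls of genes that this filter took out count as lost although they were not tested. Leaving out 1 line or 1 SKOV3 array gave 1475 to 1609 calls in all, of which 1371 to 1443 were among the 1505. With OVCA420 replicate 1 put back in, 1274 of the 1505 were called, and the cause was not tested. The replicate numbers do not pair the arrays (36 pairs of lines, r from -0.225 to 0.199), and the fit with the replicate block gave 852 higher and 652 lower, with 1497 calls shared.

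The rule for naming gave 102 genes, of which 97 were called. Of these, 85 kept call and direction in every one of the 19 alternatives with a test that held the gene, and none reversed. The other 12 lost the call under at least 1, namely AKR1B10, B2M, CCL2, CDH5, ELOVL6, ERBB4, FADS2, KRT23, MTAP, PECAM1, PLK2 and PRAME. Genes in the text outside the rule are not counted, because they were picked with these alternatives known and some were left out after their call or sign had changed. Of genes not called, 4 in the text changed sign as single lines or SKOV3 arrays were left out: KRT7 ran from -0.61 (without OAW42) to 0.23 (without DOV13) and was above 0 also without CAOV3 (0.08), OVCA420 (0.08) or OVCA433 (0.13), KITLG ran from -0.40 (without OVCA432) to 0.48 (without DOV13), MIR200B from -0.11 to 0.16, and MIR429 from -0.16 to 0.18. MIR429 was -0.02 without OAW28 and OAW42. With OVCA420 replicate 1 put back in, MIR200A (-0.01), MIR200B (-0.04) and MIR429 (-0.09) were below 0.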
